A study of Mus musculus with 12 samples.

Results

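A set of 9 genes that mark the stem cells and root sheath of the hair follicle was followed through normal, fibrotic and cell-treated mouse skin: Krt15, Krt75, Lhx2, Sox9, Lgr5, Lgr6, Cd34, Nfatc1 and Tbx1. They are 9 rows, taken by symbol, of a table of 23359 genes. All 9 had at least 1 FPKM (fragments per kilobase of transcript, scaled to the mapped fragments of the library) in all 12 libraries, so all 9 passed the filter on low values. The libraries were made from polyadenylated RNA of macrodissected skin of C3H/HeJ mice, with 3 libraries in each of 4 groups. The groups were normal skin, fibrotic skin sampled at 6 or at 20 weeks, and skin at 20 weeks labelled as treated with CD36highCD90+ cells, which the series design describes as a transplant of fibroblasts into skin fibrosis. No time point is given for normal skin, and the labels name neither the agent that produced the fibrosis nor the age or sex of the mice. Nor do they tell whether the 3 libraries of a group are 3 animals, so each p-value measures the spread between these samples.

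The hair follicle renews itself in cycles of growth and rest from stem cells held in the bulge, a niche of the outer root sheath, the sleeve of keratinocytes that is continuous with the epidermis. Bulge cells are slow to divide and are recognised in the mouse by the keratin Krt15, the surface protein Cd34 and the transcription factors Lhx2, Sox9, Nfatc1 and Tbx1. The R-spondin receptors Lgr5 and Lgr6 mark cycling stem cells of the lower follicle and of the isthmus above the bulge. Krt75 is a keratin of the companion layer, between the outer and inner root sheaths. None of these genes is restricted to the follicle: Cd34 is also made by blood vessel endothelium and dermal fibroblasts, Nfatc1 by endothelial and T cells, and Krt15 by basal cells of the epidermis. In pieces of whole skin, fewer cells of a type and less RNA per cell cannot be told apart.

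The sequences before the start sites of Krt75, Lhx2, Lgr6 and Cd34 are shown because these 4 genes fell at 20 weeks and rose in treated skin, and because the RefSeq promoter table for GRCm38.p6, the mm10 assembly named for these data, holds them. It matched 5 of the 9 genes, the other being Tbx1. Each sequence is the 250 bases that end just before the start site, 5′ to 3′ on the gene's own strand. Capitals mark the motifs found among 5 searched on both strands: the SOX core ACAATG, the LIM homeobox core TAATTA, the NFAT core GGAAA, the TATA box TATAAA and the TCF/LEF core CTTTGA. The first is Krt75 at chr15:101573905-101574154 on the minus strand. Lhx2 follows at chr2:38339031-38339280 on the plus strand, Lgr6 at chr1:135105277-135105526 on the minus strand and Cd34 at chr1:194938571-194938820 on the plus strand. Another Lhx2 window, at chr2:38351058-38351307, is not shown. It is 68.4% G and C and holds the NFAT core, as TTTCC, 138 bases before its start site.
Krt75: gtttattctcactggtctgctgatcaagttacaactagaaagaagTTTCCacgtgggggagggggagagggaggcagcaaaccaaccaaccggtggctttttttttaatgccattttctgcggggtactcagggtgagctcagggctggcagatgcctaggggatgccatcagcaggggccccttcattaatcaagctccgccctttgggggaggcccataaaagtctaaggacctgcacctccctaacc
Lhx2: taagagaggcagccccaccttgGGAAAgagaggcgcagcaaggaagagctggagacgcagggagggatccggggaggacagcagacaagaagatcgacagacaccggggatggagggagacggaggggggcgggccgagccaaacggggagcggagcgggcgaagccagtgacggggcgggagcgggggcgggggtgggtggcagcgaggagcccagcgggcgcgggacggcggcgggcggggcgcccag
Lgr6: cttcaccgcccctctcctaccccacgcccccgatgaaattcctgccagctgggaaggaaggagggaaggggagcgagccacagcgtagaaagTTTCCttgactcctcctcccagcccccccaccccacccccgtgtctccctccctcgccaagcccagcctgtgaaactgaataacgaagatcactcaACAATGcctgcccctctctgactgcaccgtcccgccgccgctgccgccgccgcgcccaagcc
Cd34: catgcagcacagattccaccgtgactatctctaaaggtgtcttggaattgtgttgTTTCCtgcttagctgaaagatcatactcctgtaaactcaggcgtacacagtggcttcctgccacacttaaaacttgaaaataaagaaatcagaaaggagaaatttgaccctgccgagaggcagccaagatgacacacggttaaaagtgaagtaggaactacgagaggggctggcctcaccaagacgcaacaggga
Each of the 4 sequences holds 1 NFAT core, as GGAAA in Lhx2 and as its reverse complement TTTCC in Krt75, Lgr6 and Cd34. That short core occurs in 55.6% of the 32851 promoter sequences of the same length in the table. The SOX core was found once, in Lgr6 at 62 bases before the start site, and occurs in 10.7% of all promoters. The LIM homeobox core, the TATA box and the TCF/LEF core, which are in 4.84%, 12.4% and 13.8% of all promoters, are not in these windows. Lhx2 and Lgr6 have promoters rich in G and C, at 72.8% and 65.2%, beside a median of 52.4% over the table, while Krt75 stood at 53.6% and Cd34 at 46.4%. The matches are descriptions of letters and were not tested for binding.

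Other facts of the series bear on these values. Between 12658 and 13364 genes stood at 1 FPKM or more in a library. Reads were not used here, but the steps between low values gave a relative depth of 0.678 to 1.09 times that of normal replicate 1 for 11 libraries. Replicate 2 at 6 weeks gave 1.07 or 0.559 depending on the library it was set against, so its depth is not settled. On the log2(FPKM + 1) scale the 9 genes had a median SD of 0.21 among normal libraries, 0.37 at 6 weeks, 0.27 at 20 weeks and 0.76 in treated skin. Over all 13761 genes tested it was 0.15, 0.14, 0.15 and 0.24. Stretches of 101 bases, the read length, that recur in transcripts of another gene made up 0.916% of Krt75 and 0.682% of Cd34 and were absent from the other 7. The partners, Gm44460 and Gm16897, lie on the opposite strand, and whether counting used the strand is not given in the sources used here.

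In normal skin the level per transcript length spanned a wide range. Krt15 was the highest of the 9 with 1839.8 ± 259 FPKM (SD, n = 3), and Cd34 was next with 89.4 ± 8.02. Krt75 (40.2 ± 10.1), Lhx2 (34.0 ± 5.09) and Sox9 (32.6 ± 6.32) followed, and neighbours among these 3 overlapped. Nfatc1 at 23.1 ± 1.09 overlapped with Tbx1 at 21.7 ± 4.25 FPKM. Lgr5 (10.5 ± 2.36) and Lgr6 (7.56 ± 0.300) were lowest and did not overlap with each other. At 20 weeks Krt15 still ranked first, but Krt75 and Lhx2 ranked sixth and seventh, below Nfatc1 and Tbx1, although the ranges of Tbx1, Krt75 and Lhx2 overlapped from one to the next.

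**Figure D1:**
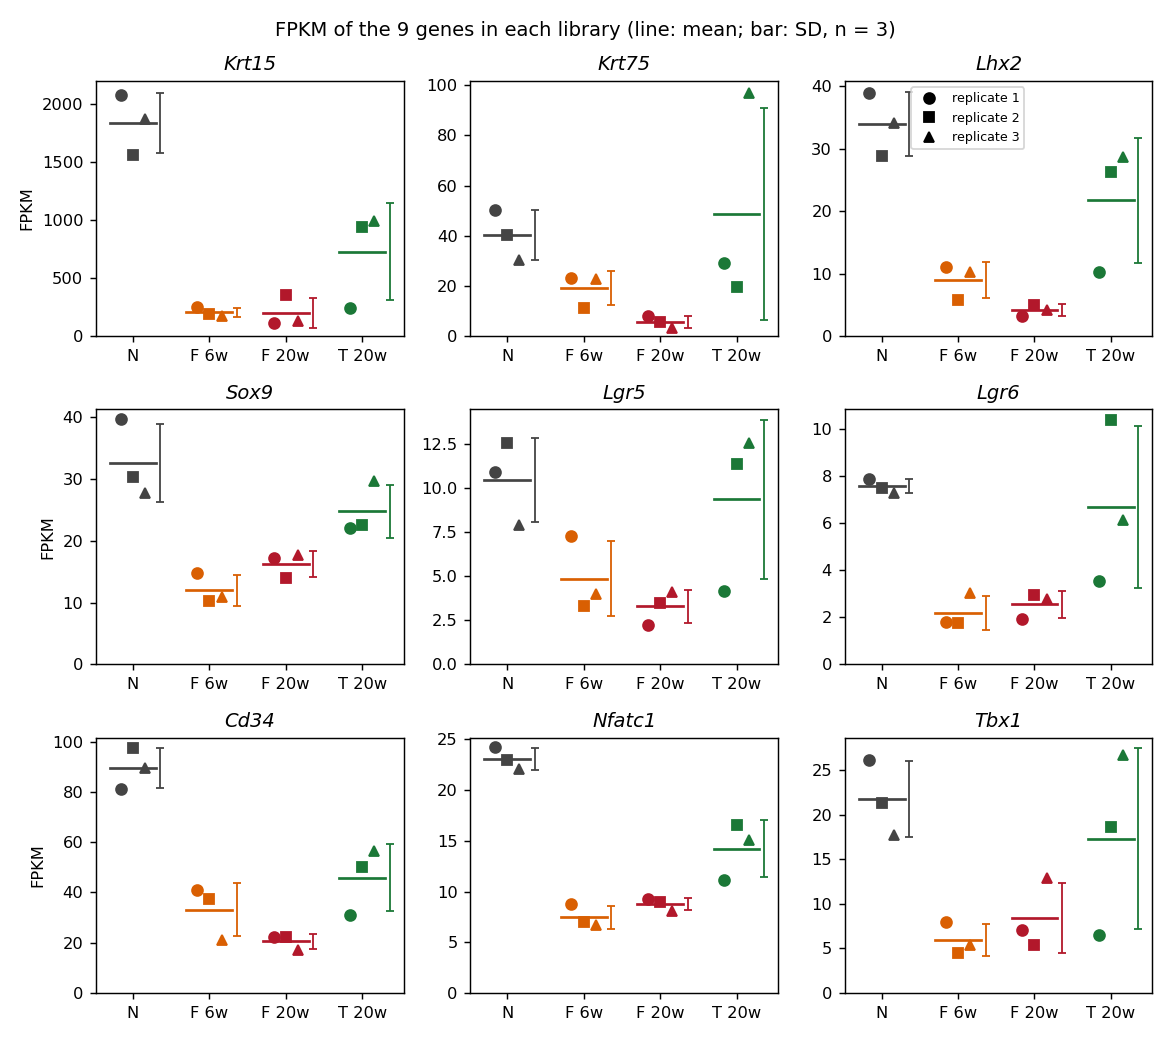
FPKM (y axis, from 0, a separate scale for each gene) of the 9 genes in normal (N), fibrotic (F, 6 and 20 weeks) and treated (T, 20 weeks) skin; each symbol is a library, the horizontal line the mean and the vertical bar the SD of 3 libraries. All 6 fibrotic libraries lie below all 3 normal ones for every gene, and treated replicate 1 is the lowest treated library for 8 of the 9.

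Fibrotic skin held less RNA of these genes at both times. All 9 had every fibrotic library below every normal library at 6 and at 20 weeks. In limma fits over all 13761 tested genes, 7 of the 9 fell at 6 weeks and 9 of 9 at 20 weeks, with Benjamini-Hochberg adjusted p under 0.05. Over all tested genes, 21.7% were called lower at 6 weeks and 18.2% at 20 weeks. Groups without overlap in the lower direction were seen in 31.4% and 29.5% of all genes. The median log2 fold change of the 9 was -1.46 at 6 weeks and -1.42 at 20 weeks, beside -0.05 and -0.04 over all genes. A fold change here is on the log2(FPKM + 1) scale, which understates the change of genes of low level. Both comparisons use the same 3 normal libraries. Lists of other states and cells differed between the same libraries. Of 10 genes of activated keratinocytes 9 rose at both times, and their sum was 454 to 642 FPKM in normal libraries, 23400 to 38463 at 6 weeks and 14151 to 22863 at 20 weeks. Of 19 tested cornification genes 15 rose and 2 fell at 6 weeks, and 12 were called higher and 4 lower at 20 weeks. Krt1 and Hrnr are among these 4 and are listed at 0 in the libraries of 20 weeks. Their means were 14514 and 354 FPKM at 6 weeks and 4337 and 71.8 FPKM in treated skin. Whether the 0 is a measured level or a missing value is not settled. Of 8 macrophage genes 6 rose at 6 weeks, and 4 rose and 1 fell at 20 weeks. Their part in the fall of the 9 genes was not tested.

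Of the keratins, Krt15 showed the largest fold change of the 9 at both times. In normal skin replicates 1, 2 and 3 gave 2079, 1564 and 1876 FPKM. Those of fibrotic skin gave 251, 189 and 169 FPKM at 6 weeks and 115, 351 and 129 FPKM at 20 weeks. The highest fibrotic value, that of replicate 2 at 20 weeks, was far under the lowest normal one. Krt15 fell at 6 weeks by 3.18 ± 0.54 (SE) on the log2 scale (adjusted p = 0.00195), to 11.03% of the normal mean. At 20 weeks the log2 fold change was -3.39 ± 0.54 (SE, adjusted p = 0.00205), with the mean at 10.8% of normal.

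The basal keratins Krt5 and Krt14 differed from Krt15. They belong to a list of 8 basal keratinocyte genes that was mixed. Of the 8, 3 were called higher and 3 lower at 6 weeks, and 1 higher and 2 lower at 20 weeks. The median log2 fold changes of the list were -0.04 and -0.03. The lower ones were Itgb4, Lamb3 and Trp63 at 6 weeks, and Lamb3 and Trp63 at 20 weeks. Krt14 rose at both times (log2 fold changes 2.05 and 1.86, adjusted p = 0.00109 and 0.00238), and Krt5 rose at 6 weeks (0.51, adjusted p = 0.0229) but did not pass at 20 weeks (0.39, adjusted p = 0.0656). Krt5 and Krt14, the partner keratins of all basal keratinocytes, stood at 2279 to 2335 and 872 to 1310 FPKM in the normal libraries, and at 2790 to 3448 and 2887 to 5282 FPKM in the 6 fibrotic ones. Krt15 thus amounted to 67.0% to 89.4% of the Krt5 level in normal skin, 5.16% to 7.93% at 6 weeks and 3.69% to 10.9% at 20 weeks. In treated skin the share was 7.44%, 26.9% and 38.4% in replicates 1, 2 and 3. The fibrotic and normal shares do not overlap. A further fit set every gene relative to the mean log2 level of 8 epithelial genes (among them Cdh1, the E-cadherin gene, and Trp63). In it the number of the 9 called lower was 7 at 6 weeks and 8 at 20 weeks, beside 1295 and 2688 of all 13761 genes. These 8 epithelial genes were not constant themselves. In the main fit 1 was called higher and 2 lower at 6 weeks, and 2 higher and 1 lower at 20 weeks.

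Krt75 gave 50.4, 40.1 and 30.2 FPKM in normal replicates 1, 2 and 3, and 23.1, 11.3 and 22.9 FPKM at 6 weeks. It fell further apart from normal at 20 weeks, with 8.06, 5.74 and 3.12 FPKM. Normal, 6-week and 20-week libraries form 3 ranges with no overlap. At 6 weeks its log2 fold change of -1.07 ± 0.53 (SE) did not pass (adjusted p = 0.132, 95% interval -2.26 to 0.11), but it passed in the fit of the 6 libraries compared (adjusted p = 0.0319). Krt75 fell at 20 weeks by 2.68 ± 0.53 (SE) on the log2 scale (adjusted p = 0.00509), to 14.0% of the normal mean.

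Among the transcription factors, Lhx2, a LIM homeobox factor that maintains bulge stem cells, gave 39.0, 28.8 and 34.1 FPKM in normal replicates 1, 2 and 3. It stood at 11.1, 5.75 and 10.2 FPKM at 6 weeks and at 3.15, 4.99 and 4.23 FPKM at 20 weeks, again 3 ranges that do not overlap. Lhx2 fell by 1.84 ± 0.35 (SE) on the log2 scale at 6 weeks (adjusted p = 0.00335). It fell by 2.78 ± 0.35 (SE) at 20 weeks (adjusted p = 0.000765), to 12.1% of the normal mean.

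Sox9, the SOX factor that specifies the outer root sheath, gave 39.7, 30.4 and 27.7 FPKM in normal skin, 14.8, 10.3 and 10.8 at 6 weeks and 17.2, 13.9 and 17.7 at 20 weeks, for replicates 1, 2 and 3. It kept the largest part of its normal level at 20 weeks, 50.01%, against 36.7% at 6 weeks. Sox9 fell by 1.37 ± 0.18 (SE) on the log2 scale at 6 weeks (adjusted p = 0.000604) and by 0.95 ± 0.18 (SE) at 20 weeks (adjusted p = 0.00422). It was the sole member with a fold under 2 on that scale at 20 weeks.

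Nfatc1, a calcium-regulated factor that keeps bulge cells quiescent, varied little in normal skin, with 24.2, 23.0 and 22.1 FPKM in replicates 1, 2 and 3. It gave 8.78, 6.98 and 6.67 FPKM at 6 weeks and 9.29, 8.94 and 8.09 FPKM at 20 weeks. It fell by 1.52 ± 0.14 (SE) on the log2 scale at 6 weeks, with the smallest adjusted p of the 9 there (0.000147), and by 1.30 ± 0.14 (SE) at 20 weeks (adjusted p = 0.000496). The T-box factor Tbx1, which acts in bulge cells during self-renewal, gave 26.2, 21.4 and 17.7 FPKM in normal skin, 7.99, 4.49 and 5.34 at 6 weeks and 7.08, 5.32 and 12.9 at 20 weeks. Its fold changes were -1.73 ± 0.45 (SE, adjusted p = 0.013) and -1.33 ± 0.45 (SE, adjusted p = 0.0421). The Tbx1 call at 20 weeks is the least firm of the 9: it was lost in 8 of 15 alternatives, and adjusted p reached 0.134 without replicate 2 of 20 weeks. At 6 weeks it was lost only without replicate 2 of that group (adjusted p = 0.0508).

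The R-spondin receptor genes were the lowest expressed of the 9. Lgr5 gave 10.9, 12.6 and 7.91 FPKM in normal replicates 1, 2 and 3, 7.27, 3.30 and 3.99 at 6 weeks and 2.26, 3.51 and 4.12 at 20 weeks. The highest 6-week value was close under the lowest normal one. Its log2 fold change of -1.01 ± 0.37 (SE) at 6 weeks did not pass (adjusted p = 0.0544, 95% interval -1.84 to -0.18), but it passed without replicate 1 of 6 weeks (adjusted p = 0.0375), in the fit of the 6 libraries compared (0.0271) and after rescaling without the muscle, hair shaft and cornified lists (0.023). At 20 weeks Lgr5 fell by 1.42 ± 0.37 (SE) on the log2 scale (adjusted p = 0.0168). Leaving out normal replicate 1, normal replicate 2 or replicate 1 of 20 weeks ended that call (adjusted p = 0.0503, 0.0528 and 0.064).

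Lgr6 gave 7.89, 7.51 and 7.29 FPKM in normal skin, the narrowest range of the 9. At 6 weeks the values were 1.795, 1.76 and 3.02 FPKM, and at 20 weeks 1.91, 2.95 and 2.79 FPKM. Lgr6 fell by 1.45 ± 0.29 (SE) on the log2 scale at 6 weeks (adjusted p = 0.00394) and by 1.28 ± 0.29 (SE) at 20 weeks (adjusted p = 0.00829). The level of Lgr6 was 59.7% to 92.2% of that of Lgr5 in normal libraries and 67.7% to 84.5% at 20 weeks, and ranged from 24.7% to 75.8% at 6 weeks.

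Cd34, a sialomucin of the cell surface by which bulge cells are sorted, gave 81.3, 97.3 and 89.7 FPKM in normal replicates 1, 2 and 3. It gave 40.8, 37.3 and 21.1 FPKM at 6 weeks and 22.4, 22.3 and 17.2 FPKM at 20 weeks. Cd34 fell by 1.46 ± 0.27 (SE) on the log2 scale at 6 weeks (adjusted p = 0.00273) and by 2.07 ± 0.27 (SE) at 20 weeks (adjusted p = 0.000782), to 23.1% of the normal mean.

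Markers of some other cells that make Cd34 or Nfatc1 were read beside them. Of 12 blood endothelium genes, 0 were called at 6 weeks and 0 at 20 weeks in the same limma fits (1 and 0 at an unadjusted p under 0.05), and the median log2 fold changes were -0.04 and -0.08. Their summed level was 71.7 to 111 FPKM in normal libraries, 70.5 to 114 at 6 weeks and 80.3 to 123 at 20 weeks, and no endothelial gene was listed at 0. Of 8 genes of dermal fibroblasts that carry CD34, 2 were called lower at 6 weeks, a share near that of all genes called lower there, and 4 at 20 weeks, with none higher. Their sum was 827 to 1173 FPKM in normal skin, 539 to 662 at 6 weeks and 710 to 821 at 20 weeks, so both fibrotic ranges lie below the normal one. Gsn makes up most of the normal sum and carries its fall, with means of 690, 215 and 375 FPKM in normal, 6-week and 20-week skin. Ly6a went the other way, with means of 127, 289 and 309 FPKM. The median log2 fold change of the 8 genes was -0.46 at 6 weeks and -0.96 at 20 weeks. Pi16, a marker of adventitial fibroblasts, and Clec3b, which encodes tetranectin, had the smallest p of these at 20 weeks, with log2 fold changes of -2.55 and -2.39. The other called ones were Gsn (-1.65 at 6 weeks, -0.87 at 20 weeks), Pdgfra (-1.06 at 20 weeks) and, at 6 weeks, Clec3b (-1.82). Ly6a and Dpp4 had estimates above 0 that did not pass, of 1.23 and 0.64 at 6 weeks and 1.34 and 0.47 at 20 weeks (adjusted p from 0.118 to 0.339). The part of these fibroblast genes in the Cd34 result was not tested. Of 8 mast cell genes 6 were tested, with medians of -0.77 at 6 weeks and -0.91 at 20 weeks. At 6 weeks 1 of them, Hdc, was called higher (1.71), and 0 were called at 20 weeks (3 at an unadjusted p under 0.05 each time). Their part in the Cd34 result was not tested either. T cell genes summed to 41.1 to 64.9 FPKM in normal skin, 14.9 to 38.7 at 6 weeks and 39.6 to 47.9 at 20 weeks. Of these 8, Cd3e, Cd3g and Trat1 fell and Cd4 rose at 6 weeks (log2 fold changes -1.73, -2.11, -1.48 and 1.7), and Cd8a rose at 20 weeks (3.06). Their part in the Nfatc1 result was not tested.

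**Figure D2:**
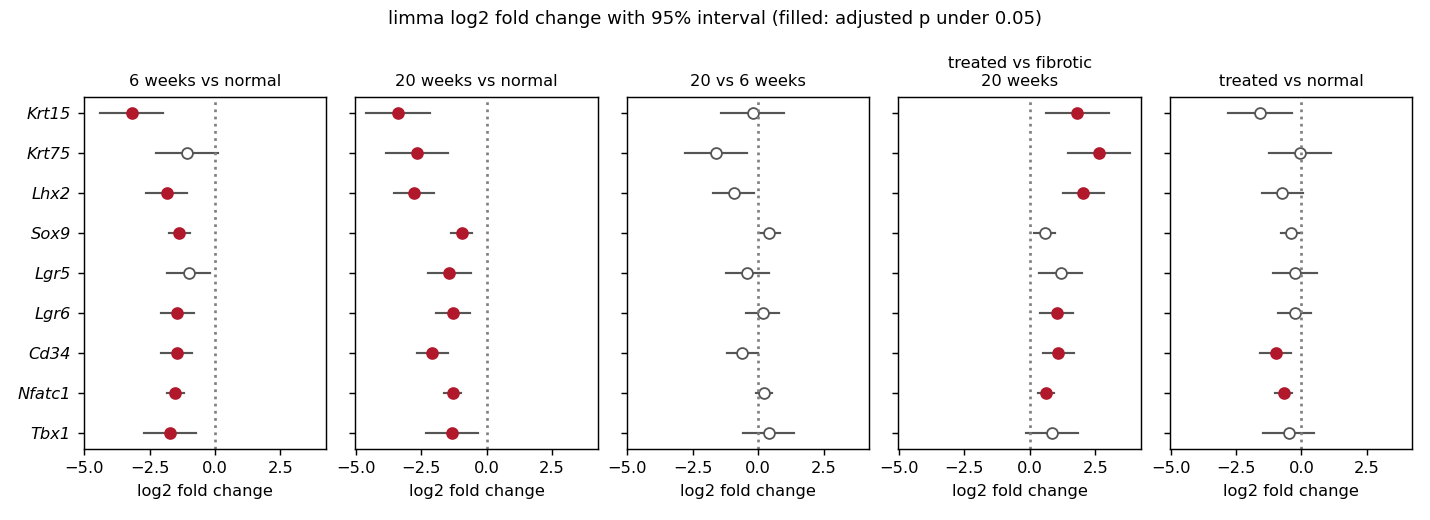
Log2 fold change (x axis, log2(FPKM + 1) scale) of each gene (y axis) in the 5 comparisons, with the 95% interval from limma as a line; filled circles have an adjusted p under 0.05. All 9 circles are filled and left of 0 at 20 weeks against normal, none is filled for 20 against 6 weeks, and 6 are filled and right of 0 for treated against fibrotic skin.

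Between 6 and 20 weeks no member passed. In limma, 0 of 9 had an adjusted p under 0.05, beside 5 of all 13761 genes (0.0363%). Krt1 and Hrnr, with their 0 at 20 weeks, are among those 5. At an unadjusted p under 0.05 there were 4 of the 9, beside 19.9% of all genes. The fit of these 6 libraries alone also called 0 of 9. The 4 were Krt75, Lhx2 and Cd34, which were lower at 20 weeks, and Sox9, which was higher. The log2 fold change was -1.60 for Krt75 (95% interval -2.79 to -0.42, adjusted p = 0.153), -0.94 for Lhx2 (-1.72 to -0.16, adjusted p = 0.185) and -0.61 for Cd34 (-1.20 to -0.02, adjusted p = 0.241). Krt75 and Lhx2 were the 2 members whose 20-week libraries all lay under the 6-week ones, which held for 13% of all genes. For Sox9 the value was 0.42 (0.02 to 0.83, adjusted p = 0.231). Krt15 had a log2 fold change of -0.21 with an interval of -1.41 to 1.003, which leaves room for a 2-fold difference in either direction.

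Skin labelled as treated with the CD36highCD90+ cells was compared with fibrotic skin at the same time point, 20 weeks. In limma, 6 of the 9 rose (Krt15, Krt75, Lhx2, Lgr6, Cd34 and Nfatc1), where 4.45% of all tested genes were called higher. For 7 of the 9 the treated and fibrotic libraries did not overlap, which was so in the higher direction for 13% of all genes. The exceptions were Krt15 and Tbx1. The median log2 fold change of the 9 was 1.08, beside -0.00442 over all genes, and all 9 estimates were above 0. The fibrotic libraries of 20 weeks are shared with the comparison to normal skin, so the 2 comparisons are not independent.

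Krt75 had the largest fold change between treated and fibrotic skin. Treated replicates 1, 2 and 3 gave 29.0, 19.5 and 97.0 FPKM, against at most 8.06 FPKM in fibrotic skin of 20 weeks. Replicate 3 exceeded every normal library, while replicates 1 and 2 were below all of them. Krt75 rose by 2.64 ± 0.53 (SE) on the log2 scale (adjusted p = 0.0183). Lhx2 gave 10.3, 26.3 and 28.7 FPKM in treated skin, all above the fibrotic libraries of 20 weeks, and rose by 2.05 ± 0.35 (SE, adjusted p = 0.0152).

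Krt15 gave 243, 943 and 993 FPKM in treated replicates 1, 2 and 3. Replicate 1 fell inside the fibrotic range and the other two stood well above it. The log2 fold change was 1.81 ± 0.54 (SE, adjusted p = 0.0489). Cd34 gave 30.8, 50.3 and 56.7 FPKM (log2 fold change 1.08 ± 0.27, SE, adjusted p = 0.0272), and Nfatc1 gave 11.1, 16.5 and 15.0 FPKM (0.63 ± 0.14, SE, adjusted p = 0.0226). Lgr6 gave 3.56, 10.4 and 6.14 FPKM (1.03 ± 0.29, SE, adjusted p = 0.0389). In each of these 3 genes all treated libraries were above all fibrotic ones of 20 weeks.

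The other 3 genes had higher means in treated skin without passing. Lgr5 gave 4.19, 11.4 and 12.5 FPKM, and differed by 1.18 on the log2 scale (95% interval 0.35 to 2.01, adjusted p = 0.0583). Sox9 gave 22.1, 22.5 and 29.6 FPKM, with 0.57 (0.17 to 0.97, adjusted p = 0.0585). Tbx1 gave 6.52, 18.6 and 26.7 FPKM, with 0.84 (-0.15 to 1.83, adjusted p = 0.204). For Tbx1, treated replicate 1 lay within the fibrotic range and replicate 3 above the normal one.

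These calls rest on few libraries and on the pooled spread. A limma fit of the 6 libraries of this comparison alone called 0 of the 9 (8 at an unadjusted p under 0.05) and 3 genes in all, against 2108 in the fit of all 12 libraries. The share of all genes at an unadjusted p under 0.05 was not taken in that fit. Of the 9, 0 were called without replicate 3 of fibrotic skin at 20 weeks, 2 without replicate 1 and 3 without replicate 2 of that group, beside 0.0218%, 2.48% and 6.97% of all genes in either direction. Without treated replicate 1 all 9 were called, beside 37.9% of all genes. Without treated replicate 2 or 3 there were 2 each, beside 3.87% and 2.16%. In every one of these fits the 9 estimates stayed above 0.

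**Figure D3:**
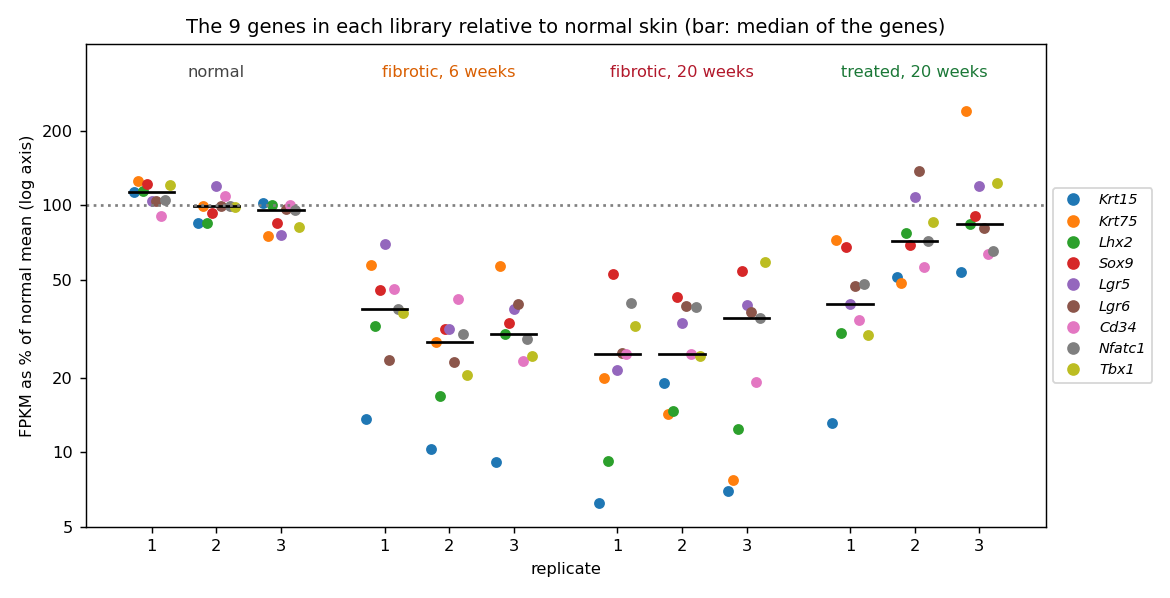
FPKM of each gene (colours) in each of the 12 libraries (x axis) as a percentage of the gene's mean over the 3 normal libraries (y axis, log scale); black bars are the median over the 9 genes. The medians are 24.97% to 38.0% in the fibrotic libraries, 40.0% in treated replicate 1, and 71.6% and 84.4% in treated replicates 2 and 3.

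The treated libraries differed among themselves. The median of the 9 genes, as a percentage of each gene's normal mean, was 40.0% in treated replicate 1, 71.6% in replicate 2 and 84.4% in replicate 3. In the fibrotic libraries it ran from 28.0% to 38.0% at 6 weeks and from 24.97% to 34.99% at 20 weeks. Replicate 1 was the lowest treated library for 8 of the 9 genes, as it was for 42.7% of all tested genes. It was below the normal range in all 9, beside 44.6% of all genes. Replicate 2 was below that range in 6, within it in 2 and above it in 1 (Lgr6). Replicate 3 was below in 5, within in 2 and above in 2 (Krt75 and Tbx1). The percentages of all genes below the normal range were 37.2% and 46.4% in these libraries.

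Other lists moved with these libraries. The summed endothelium genes were 55.4, 163 and 219 FPKM in treated replicates 1, 2 and 3, in the same order as Cd34, and 0 of 12 passed between treated and fibrotic skin in limma (0 also at an unadjusted p under 0.05, median log2 fold change 0.50). The CD34-carrying fibroblast genes summed to 1195, 820 and 1103 FPKM, and 1 of 8, Pi16, was called higher. Mast cell genes summed to 35.4, 135 and 113 FPKM, against 23.2 to 64.2 in fibrotic skin of 20 weeks. Of the 6 tested, 0 were called (3 at an unadjusted p under 0.05, median log2 fold change 1.015). T cell genes summed to 63.9, 27.3 and 26.4 FPKM, against 39.6 to 47.9, and 0 of 8 were called (1 at an unadjusted p under 0.05, median -0.16). Genes of activated keratinocytes summed to 15523, 3827 and 1417 FPKM in treated replicates 1, 2 and 3, against 14151 to 22863 in fibrotic skin of 20 weeks. Sebaceous gland genes summed to 577, 1934 and 2336 FPKM, against 485 to 530. Adipocyte genes summed to 549, 1320 and 3074 FPKM, against 224 to 443, and the hormone genes Lep and Retn were called higher out of 8 (7 at an unadjusted p under 0.05, median log2 fold change 1.80). Of 19 cornification genes 11 fell. The 2 called higher were Krt1 and Hrnr, listed at 0 in fibrotic skin of 20 weeks, so these 2 calls rest on those zeros. The 8 epithelial genes had a mean log2 level of 0.04, -0.23 and -0.43 relative to normal skin in treated replicates 1, 2 and 3. The higher follicle values of replicates 2 and 3 thus came with lower values of these, and 3 of the 8 were called lower in treated than in fibrotic skin. The part of these lists in the results above was not tested. Relative to the 8 epithelial genes, 8 of the 9 members were called higher in treated than in fibrotic skin, in a fit that called 31.7% of all genes and moved the median of all genes to 0.36.

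Against normal skin, 2 of the 9 were lower in treated skin, where 13.2% of all genes were. Cd34 fell by 0.99 ± 0.27 (SE) on the log2 scale (adjusted p = 0.0285) and Nfatc1 by 0.68 ± 0.14 (SE, adjusted p = 0.0121). For these 2, and for Krt15 and Lhx2, every treated library was below every normal one, as for 23.5% of all genes. Krt15 had -1.58 (95% interval -2.79 to -0.37, adjusted p = 0.0628) and Lhx2 -0.73 (-1.51 to 0.05, adjusted p = 0.159). The intervals of the other 5 include 0. That of Krt75 ran from -1.23 to 1.14, and those of Lgr5 and Lgr6 from -1.07 to 0.59 and from -0.89 to 0.38, so differences within those bounds are not excluded. The Cd34 call was lost without any of the 3 normal libraries (adjusted p = 0.0508, 0.0757 and 0.089 without replicates 1, 2 and 3) and without treated replicate 1 (adjusted p = 0.0584). Both calls were lost relative to the 8 epithelial genes (adjusted p = 0.122 and 0.152) and in the fit of these 6 libraries alone (0.0846 and 0.0804).

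A list of 25 other genes, drawn up for the bulge, the isthmus and the outer root sheath, was tested in the same fits. Its genes, Shh and Postn among them, are not restricted to those parts. At 6 weeks 10 of 25 fell and 2 rose (median log2 fold change -0.52). Those that rose were the ligand gene Shh (1.17) and the Wnt inhibitor gene Wif1 (1.02). At 20 weeks 13 fell and 1, the homeobox gene Barx2 (0.41), rose (median -0.63). Fgf18, a growth factor gene of the resting bulge, fell from a mean of 13.6 FPKM to 0.445 at 6 weeks and 0.81 at 20 weeks (log2 fold changes -3.32 and -3.06, adjusted p = 0.000395 and 0.000859). Gata6, a factor of the upper follicle and sebaceous duct, fell from 10.4 to 1.40 and 2.16 FPKM (-2.27 and -1.85, adjusted p = 0.000211 and 0.000781). Foxc1, a forkhead factor of bulge quiescence, fell from 26.9 to 6.39 and 7.38 FPKM (-1.92 and -1.81, adjusted p = 0.000571 and 0.00112). Lrig1, a brake on growth factor receptors in the junctional zone, fell from 45.8 to 15.5 and 16.2 FPKM (-1.50 and -1.44, adjusted p = 0.000988 and 0.00168). In treated against fibrotic skin 9 of the 25 rose and 1, Barx2 (-0.61), fell (median 0.56). Those with at least a 2-fold change were Fgf18 (log2 fold change 1.699, adjusted p = 0.024), Shh (1.12, adjusted p = 0.0366) and Wif1 (1.096, adjusted p = 0.0205). Foxc1, Gata6 and Lrig1 rose by 0.96, 0.80 and 0.73 (adjusted p = 0.032, 0.0454 and 0.0494). Against normal skin 6 of the 25 were lower in treated skin and 3 higher (median -0.14). Fgf18, Foxc1, Gata6 and Lrig1 were among the lower ones (log2 fold changes -1.36, -0.85, -1.05 and -0.71, adjusted p = 0.0383, 0.0383, 0.0154 and 0.0463). Those that were higher were Shh (1.499, adjusted p = 0.0107), Wif1 (1.34, adjusted p = 0.00666) and Cdh3, the P-cadherin gene (0.42, adjusted p = 0.043). They share libraries with the members and are not independent support.

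Hair shaft genes moved the other way at 6 weeks. Of 19 hair shaft genes 16 rose and 0 fell at 6 weeks (median log2 fold change 3.24), where 2427 of all 13761 genes were called higher. At 20 weeks 1, Krt84 (2.39), rose (median 0.74). In treated against fibrotic skin 6 rose (median 2.90), where 612 of all genes did. Of 10 inner root sheath genes, the keratins Krt25, Krt28 and Krt73 rose at 6 weeks (log2 fold changes 3.97, 3.51 and 4.15) and the transcription factor gene Gata3 fell (-1.08, median of the list 3.14). At 20 weeks Gata3 (-0.85) was the 1 gene of that list called. Summed hair shaft genes were 24.4 to 399 FPKM in normal libraries, 1117 to 1490 at 6 weeks, 126 to 283 at 20 weeks, and 1503, 342 and 4897 in treated replicates 1, 2 and 3. The treated libraries thus had another order for hair shaft genes, with replicate 2 lowest, than for 8 of the 9 stem cell and root sheath genes, with replicate 1 lowest. Krt75 alone had the hair shaft order, with replicate 3 highest and replicate 2 lowest. Of 11 dermal papilla genes 7 were tested, with Trps1 and Wnt5a higher at 6 weeks (log2 fold changes 0.92 and 1.17) and at 20 weeks (0.79 and 0.61), and Rspo3, an R-spondin gene, lower at 20 weeks (-1.16). Sebaceous gland genes, made by cells that adjoin the upper follicle, fell in 7 of 10 at 6 weeks and in 6 of 10 at 20 weeks, where Dgat2 rose (0.58).

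**Figure D4:**
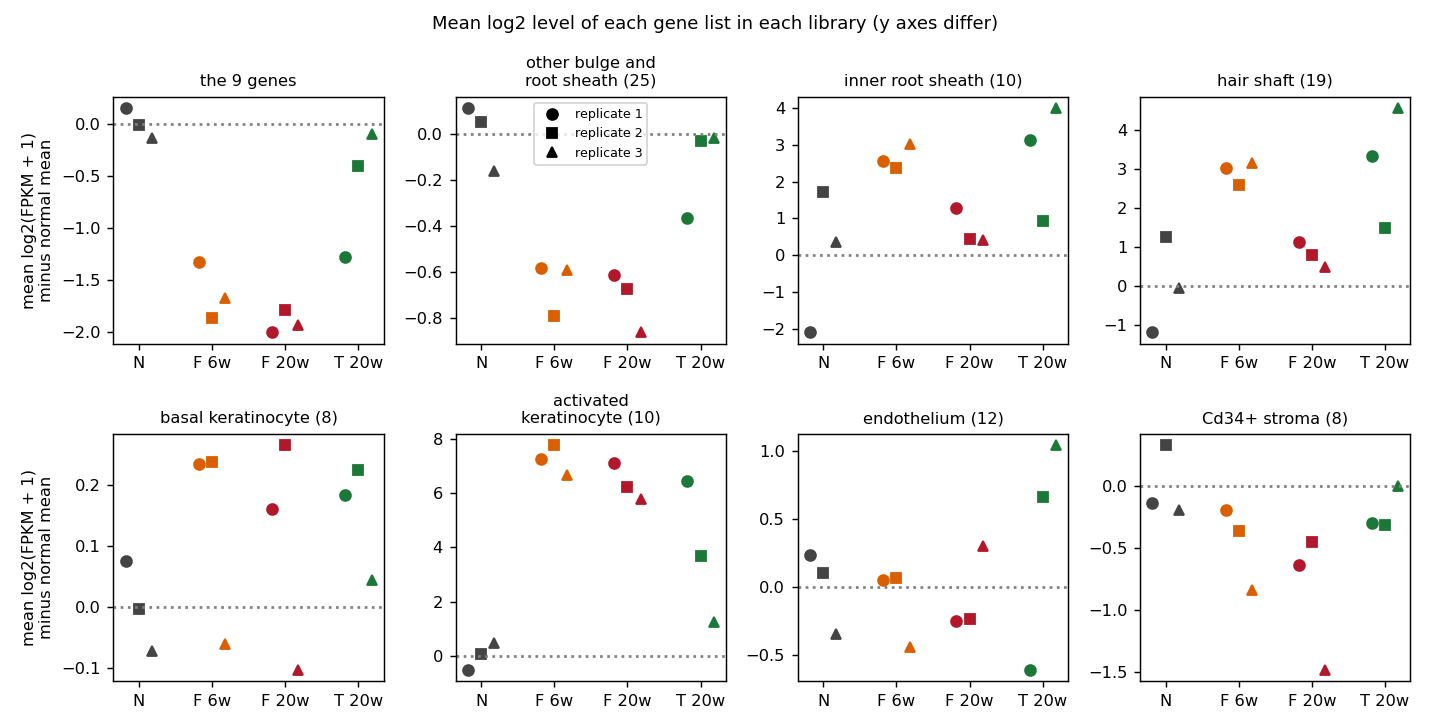
Mean log2(FPKM + 1) of each gene list minus its mean over normal libraries (y axis, a separate scale for each panel) in each library, by group (x axis); symbols are replicates and numbers in brackets are the genes of a list. The 9 genes and the 25 other bulge and root sheath genes are lower in all 6 fibrotic libraries than in normal ones, whereas the hair shaft list is higher at 6 weeks. Treated replicate 1 stands apart from replicates 2 and 3 for the 9 genes and endothelium. For activated keratinocytes the treated libraries step down from replicate 1 to replicate 3.

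Likeness between genes was measured as the root mean square difference of their log2(FPKM + 1) values over the 12 libraries, after each gene was centred on its own mean. It is a description, favours genes of small range, and includes the group differences. Among the 9, the closest pair was Sox9 and Nfatc1 with a difference of 0.23, followed by Lgr6 and Nfatc1 with 0.33, and the farthest was Krt15 and Krt75 with 1.096. Outside the 9, the nearest to Krt15 were Fgf18 (0.29) and the cytokine receptor gene Il31ra (0.32), and Il31ra fell from a mean of 12.6 FPKM in normal skin to 0.179 and 0.298 at 6 and 20 weeks. The nearest to Lgr6 were Npnt, which encodes the basement membrane protein nephronectin of the bulge (0.19), and Apcdd1, a Wnt inhibitor gene (0.21). Nfatc1 was nearest to the Wnt receptor gene Fzd3 (0.13) and to Nfib (0.13), which encodes a transcription factor of follicle stem cells. Lhx2 was nearest to Fam117a (0.30) and Tfap2b (0.40), Sox9 to Sh3tc2 (0.14) and the hedgehog co-receptor gene Boc (0.19), and Lgr5 to Ebf1 (0.19) and Pygb (0.23). Cd34 was nearest to Cyp1b1 (0.23) and Akr1c13 (0.24), and Tbx1 to Aqp7 (0.29) and Slc25a23 (0.30). Krt75 had no near neighbour of that kind, the closest being Ism1 (0.59) and Efhd1 (0.61).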

How the data were processed

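Polyadenylated RNA of skin was sequenced in paired-end runs with a stranded kit, per the labels' protocols. The authors deposited 1 table of FPKM values with a column per library, per the file headers, and columns were matched to samples by title. The submitters' processing notes list, without roles, Cufflinks 2.2.1, TopHat2 2.0.13, Bowtie2 2.2.3, R 3.1.1, SAMtools 1.0, FastQC 0.11.2, cutadapt 1.7.1 and the mm10 build. Gene annotation, strand setting and scaling between libraries: not given in the sources used here. Depth is known only as the relative estimate in the text, so no counting error is given.

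Tests ran on log2(FPKM + 1) for the 13761 genes that reached 1 FPKM in 3 or more libraries, with limma 3.58.1 in R 4.3.3, in a single fit of the 12 libraries with a mean per group and an intensity trend. They were 2-sided, with Benjamini-Hochberg adjustment over all these genes in each of 5 comparisons, and a gene was called when its adjusted p was under 0.05. The fit was tested on simulated data with the same spread of a gene in every group, which does not cover the larger spread among treated libraries.

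The 9 genes and the other lists were chosen with earlier results of these data known. The text names all 9, the called genes of the 25 other bulge and root sheath genes with at least a 2-fold change in fibrotic against normal skin (at most 4 per time, by p), up to 2 genes of other lists by p at 20 weeks, and the 2 nearest genes of each member, without predicted genes. Krt5, Krt14, Cdh1, Trp63, Ly6a, Dpp4 and other genes behind counts of 5 or fewer were named after their values were seen. Plet1 and Adgre1 were matched through older symbols, and 1 gene of the cornified list was not used here. Same-numbered libraries deviated together weakly at 6 weeks against normal skin (correlations of deviations from the group means 0.108 to 0.227 over genes). There 4 of 6 libraries correlated best with their own number. The labels name no pairs, so whether the numbers pair the libraries is not settled, and the reported tests are unpaired. Elsewhere the correlations ran from -0.350 to 0.291 and no comparison had every same-numbered pair over 0.1. Gene positions are from GENCODE M21 and RefSeq, both on GRCm38.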

Additional observations from a re-analysis of the deposited data

How the results depend on the processing

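The numbers of the 9 genes called at 6 and at 20 weeks against normal skin ran from 6 to 8 and from 7 to 9 when each library was left out, and all estimates stayed below 0 under each alternative run. Of all genes, 25.4% to 33.2% at 6 weeks and 22% to 25.8% at 20 weeks were called in those fits, in either direction. In treated against fibrotic skin the count of 6 became 0 in the fit of the 6 libraries alone and ran from 0 to 9 with each library left out. In treated against normal skin the count of 2 became 0 relative to the epithelial genes and 0 in the fit of the 6 libraries alone, and ran from 1 to 2 with each library left out. In the fits with a library left out, 6.57% to 22.5% of all genes were called there. Over the 9 genes, 5 comparisons and all alternatives, 596 values kept their direction and side of the threshold, 50 lost a call, 12 gained one and 12 changed sign. No sign change concerned a called gene. For Krt75 in treated against normal skin the log2 fold change was 0.0245 under scaling by the median of ratios, 0.17 relative to the epithelial genes and -0.70 to 0.43 with each library left out. At 20 against 6 weeks, Lgr6 and Nfatc1 were at -0.0837 and -0.0366 relative to the epithelial genes, and Krt15 ran from -0.71 to 0.0869 with each library left out. In treated against normal skin Lgr5, Lgr6 and Tbx1 ran from -0.50 to 0.20, -0.58 to 0.0749 and -0.89 to 0.0534. The cause was not tested.

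Of all genes, 2108 were called in treated against fibrotic skin, 4364 relative to the epithelial genes, 1365 with a block for the replicate number and 3 in the fit of the 6 libraries. With each library left out the lowest count was 3, without replicate 3 of fibrotic skin at 20 weeks, and the highest 5216, without treated replicate 1. Treated against normal skin gave 2855, or 138 in the fit of the 6 libraries, 904 without normal replicate 3 and 1796 without normal replicate 2. Against normal skin, the counts of 5409 at 6 weeks and 4605 at 20 weeks became 3502 without replicate 2 of 6 weeks and 3028 without replicate 1 of 20 weeks. At 20 against 6 weeks there were 5, or 1404 relative to the epithelial genes, 478 in the fit of the 6 libraries, 33 with a mean filter of 5 FPKM 2 after rescaling, and 109 and 12 without replicate 3 of 6 weeks and replicate 1 of 20 weeks. Rescaling without the muscle, hair shaft and cornified lists gave 6003 lower and 1241 higher genes at 6 weeks (2982 and 2427 as reported) and moved the median of all genes to -0.36. At 20 weeks it gave 5320 and 1089 (2503 and 2102), with a median of -0.32. In treated against fibrotic skin it gave 704 lower and 2010 higher (1496 and 612), with a median of 0.23. Relative to the epithelial genes, lower and higher genes were 1295 and 2963 at 6 weeks, 2688 and 1444 at 20 weeks (median -0.19), 1361 and 43 at 20 against 6 weeks (4 and 1 as reported, median -0.23), 635 and 3729 in treated against fibrotic skin (median 0.36) and 311 and 1840 in treated against normal skin (1813 and 1042, median 0.14). Scaling by the median of ratios gave 1359 and 1222 there.

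With the replicate block 7 of the 9 genes were called at 6 weeks against normal skin, beside 36.4% of all genes. Same-numbered libraries deviated together weakly there. Elsewhere their correlations were mixed in sign, with 0.291 for replicate 1 in treated against fibrotic skin, and pairing is not settled. The block called 8, 0, 5 and 2 of the 9 at 20 weeks against normal, at 20 against 6 weeks, in treated against fibrotic and in treated against normal skin. Of all genes it called 30.7%, 0.0363%, 9.92% and 17.1% in these comparisons. Not every library correlated best with its own number in any comparison (at most 4 of 6). A pseudocount of 0.1 FPKM and a fit without the intensity trend left every call of the 9 genes as reported. The filter at a mean of 5 FPKM removed Lgr6. In limma without the filter on low values, 4 of the 9 were called in treated against fibrotic skin, beside 7.97% of all genes. Krt15 and Lgr6 lost their calls there (adjusted p = 0.076 and 0.063). At 20 weeks against normal skin that fit called 8 of the 9, beside 23.5% of all genes, and Tbx1 lost its call (adjusted p = 0.0617).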
